A study of Mytilus coruscus with 2 samples.

Results

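Peaks near transposon-derived genes were taken from the list of Nrf2 ChIP-seq peaks of the digestive gland of the hard-shelled mussel *Mytilus coruscus*. A peak was a member when the Swiss-Prot, KEGG or TrEMBL match of its nearest gene held one of these words: transposon, transposase, retrovirus-related, RNA-directed DNA polymerase, reverse transcriptase, transposable element or piggyBac. The rule used names only and no measured value. It found 51 of 3465 peaks (1.47%, 95% Wilson interval 1.12 to 1.93%), which lay nearest to 34 of the 2548 genes in the list. By the names, 27 of these peaks belonged to 17 genes like LTR retrotransposons, 11 to 9 genes like LINEs and 6 to 6 genes like DNA transposons. A further 3 peaks belonged to 1 gene with another transposon name, and 4 to the gene of telomerase, a host enzyme that the words reverse transcriptase had picked up. Intervals on shares cover counting error only.

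The study set 1 library of chromatin precipitated with a custom antibody against Nrf2 beside 1 input library, which is the same kind of chromatin sequenced without precipitation. The antibody and its target are those of the series' design text, since the label of the ChIP library leaves the antibody open. Both libraries came from digestive gland cells, and neither label names a treatment. There was 1 library of each kind, so no value has a replicate error, no difference between animals could be tested, and every number describes this pair of libraries. The table holds peaks only and no expression or cell type measurement, so the tissue label could not be checked against markers.

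Nrf2 is a transcription factor that is held in check by Keap1 and, under oxidative stress, binds antioxidant response elements with a small Maf partner. LTR retrotransposons copy themselves through RNA and encode a gag protein, a protease, a reverse transcriptase and an integrase between long terminal repeats. LINEs also copy themselves through RNA but lack these repeats, whereas DNA transposons are cut and pasted by a transposase. All of them leave many similar copies in a genome, and some copies have been taken over as host genes.

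Fold enrichment, the ratio of the ChIP pileup at the summit to the local background from the input, was about the same in the members as in the whole list. The median fold was 4.43 over the 51 member peaks (95% interval of the median from order statistics 4.03 to 5.24, range 2.63 to 29.0) and 4.63 over all peaks (4.59 to 4.68, range 1.61 to 36.8). A fold of 5 or more was reached by 20 of 51 members (39.2%, 27.0 to 52.9%), against 39.8% of all peaks, so that this share was near the background. A fold of 10 or more was reached by 3 of 51 members (5.88%, 2.02 to 15.9%), against 2.48% of all peaks, and the interval of the members included the background. Of these 3 peaks, 2 belonged to 1 gene, and 1 peak was left without it. Of the 51 folds, 16 lay below the lower quartile of all peaks (31.4%, against 24.9% of all peaks) and 16 above the upper quartile (31.4%, against 23.8%). The interval of both member shares, 20.3 to 45.0%, included the share of all peaks.

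The pileup, the number of ChIP fragments over the summit, had a median of 16 in the members and 16 in all peaks. It was between 8 and 39 fragments in 47 members and 40 or more in 4, so most folds rest on few fragments. The median background of the members was 3.67 fragments, against 3.26 for all peaks, where background is the input level plus 1. The lowest background in the list was 2.48 fragments, and 15 members (29.4%) were within 10% of it, against 30.9% of all peaks. Member peaks were as long as the others, with a median of 305 bp against 311 bp. The −log10 q of the peak calls was under 3 in 19 members (37.3%) and in 893 of all peaks (25.8%), and its median was 4.52 against 4.72.

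**Figure D1:**
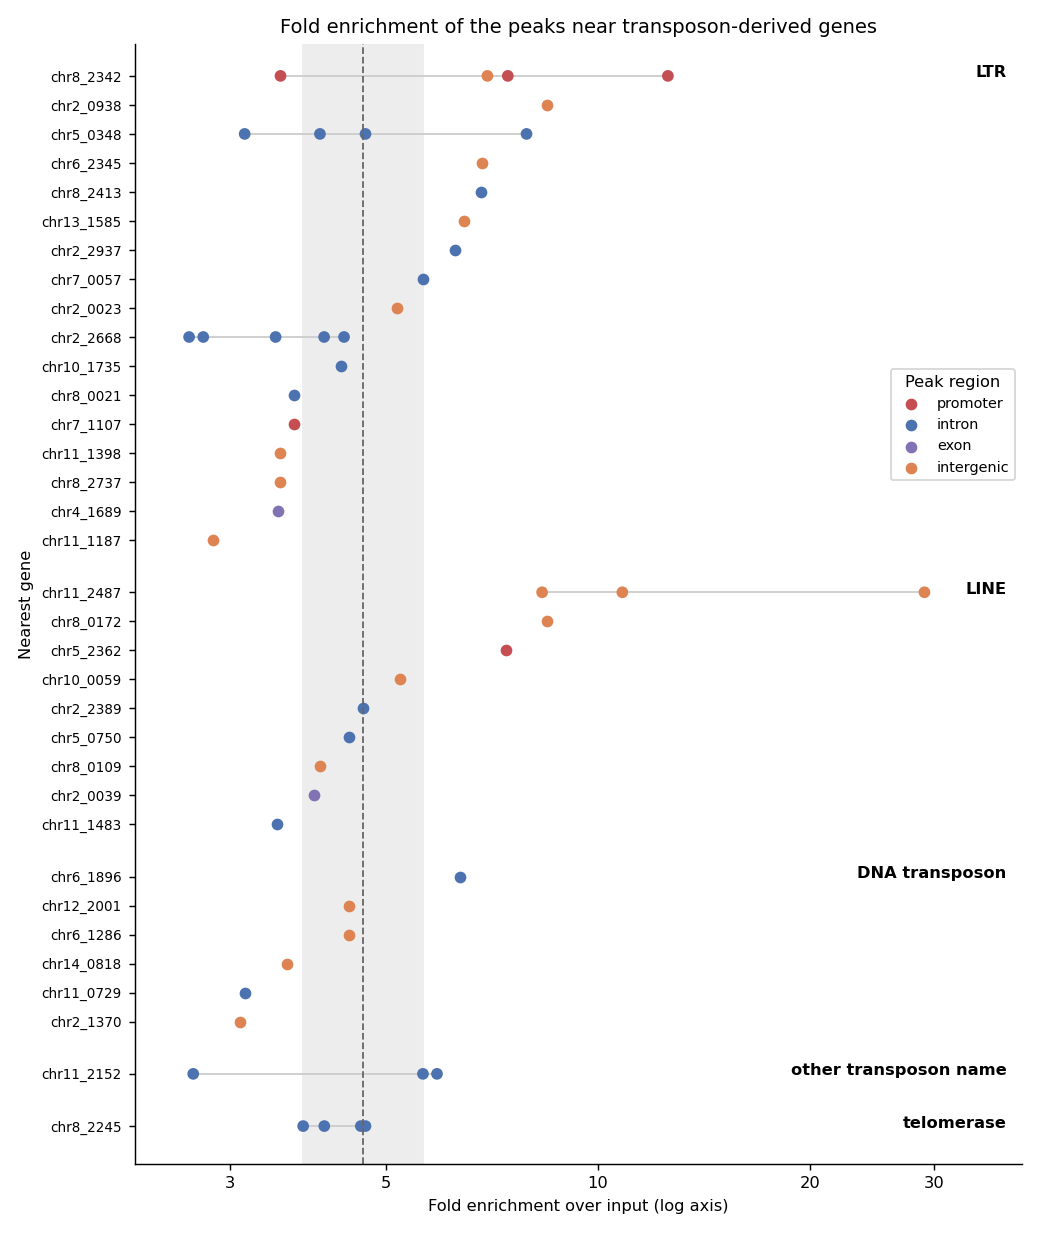
Fold enrichment over input (log axis) of the 51 peaks by nearest gene, grouped by element type, with 1 point per peak coloured by region. The dashed line is the median of all peaks, 4.63, and the grey band their interquartile range of 3.82 to 5.64; chr11_2487 and chr8_2342 hold the 3 points above 10.

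By element type, the median fold was 5.24 for the 11 LINE peaks (3.96 to 10.8), 4.32 for the 27 LTR peaks (3.54 to 6.45) and 4.03 for the 6 DNA transposon peaks (3.10 to 6.37), and these intervals overlapped. A fold of 5 or more was found in 6 of 11 LINE peaks (54.5%, 28.0 to 78.7%), 11 of 27 LTR peaks (40.7%, 24.5 to 59.3%) and 1 of 6 DNA transposon peaks (16.7%, 3.01 to 56.4%). Each interval included the 39.8% of all peaks, and 3 of the 6 LINE peaks belonged to 1 gene. Peaks of 1 gene are not independent of each other. With the highest peak of each gene only, the median was 4.63 over the 9 LINE genes, 5.18 over the 17 LTR genes and 4.03 over the 6 DNA transposon genes. LINEs ranked above LTR elements by peak and below them by gene, so the order of these types depended on whether peaks or genes were counted. Over all 34 genes the median of the highest fold was 4.53, against 4.84 over all 2548 genes.

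Among the LINE-like genes, M.coruscus_chr11_2487 (gene names are given below without the species) matched the X-element, a jockey-like retrotransposon of *Drosophila*, with an E-value of 3e-29 in Swiss-Prot. KEGG named it sarcosine oxidase (3e-39), and InterPro placed a reverse transcriptase domain in it. Its 3 peaks were intergenic and followed each other over 8109 bp downstream of the gene's transcription start site (TSS). The peak at chr11:98587637-98591101, 8760 bp from the TSS, held 519 fragments over a background of 17.9, for a fold of 29.0. The peak at chr11:98593042-98593689 had 38 fragments over 3.60 and a fold of 10.8. The peak at chr11:98595132-98595745 had 30 fragments over 3.72 and a fold of 8.33. Fold and pileup therefore fell with distance from the strongest peak, and all 3 exceeded the median of all peaks. Within the list of 3465 they ranked 5, 70 and 178 by fold. The strongest was also the longest peak of the list, at 3465 bp, and ranked 2 by pileup. Its background of 17.9 was above the 90th percentile of all peaks, 10.8. The next pileups among the members were far lower, at 98 and 78 fragments.

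The other jockey-like genes had 1 peak each. The gene chr8_0172, which matched jockey itself and which KEGG named a glycerol-3-phosphate acyltransferase, had an intergenic peak 45045 bp from its TSS with 78 fragments over a background of 9.34 and a fold of 8.46. The other genes matching jockey were chr10_0059, named by KEGG a subunit of RNA polymerase III, with a fold of 5.24, and chr8_0109, with a fold of 4.03, both intergenic. Of these 3 folds, 8.46 and 5.24 were above the median of all peaks and 4.03 was below it.

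The BS element, another LINE of *Drosophila*, was matched by chr5_2362 and chr2_0039. In chr5_2362, which also carries immunoglobulin-like domains and which KEGG named DnaJ homolog subfamily C member 13, an endosomal chaperone partner, the peak at chr5:103471117-103471378 lay in the promoter, 963 bp upstream of the TSS. It held 18 fragments over 2.57 for a fold of 7.41, the only LINE peak in a promoter. In chr2_0039, named myosin III by KEGG, the peak was exonic, 8325 bp from the TSS, with 10 fragments and a fold of 3.96, and it lay below the median of the list.

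The remaining LINE names were a LINE-1 homolog, the element also found in mammals, and R2DM, which inserts into ribosomal RNA genes of *Drosophila*. LINE-1 was matched by chr2_2389, named by KEGG the ubiquitin ligase HERC1, and by chr5_0750. Their intron peaks had folds of 4.63 and 4.43. R2DM was matched by chr11_1483, where an intron peak 1692 bp from the TSS had 8 fragments, the lowest pileup in the list, and a fold of 3.51. The KEGG match of chr11_1483, at an E-value of 4e-06, was an uncharacterized protein filed under the potassium channel KCNH8. The Swiss-Prot match of this gene had 7e-12.

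**Figure D2:**
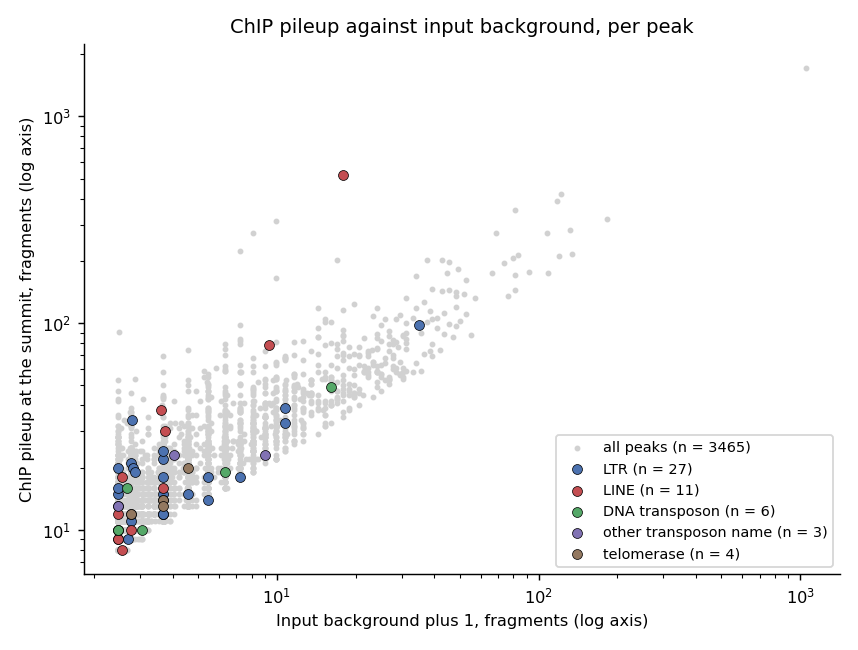
ChIP pileup at the summit against input background plus 1, both in fragments on log axes, with 1 point per peak for all 3465 peaks (grey) and the 51 members (coloured by element type). Most members sit in the dense lower left, and the LINE point at 519 fragments over 17.9 stands apart from them.

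Among the LTR genes, chr8_2342 matched gypsy, the *Drosophila* element that carries an envelope gene, at an E-value of 1e-25, and InterPro found an integrase domain in it. KEGG named it Eph receptor A5, a receptor of axon guidance, at 1e-57, and TrEMBL matched it to a retrovirus polyprotein at 1e-73. All 4 of its peaks lay upstream of the TSS and spanned 4002 bp. The peak nearest to the TSS, at chr8:107123457-107123794 and 469 bp upstream, had 20 fragments and a fold of 7.45. The peak 1878 bp upstream had 12 fragments and a fold of 3.54. The peak at chr8:107125237-107126269, 2405 bp upstream, had 34 fragments and a fold of 12.6, the highest of any LTR peak. The peak 4273 bp upstream, which is classed as intergenic, had 19 fragments and a fold of 6.97. Folds did not follow distance, and the weakest peak stood between the strong ones. The backgrounds were between 2.79 and 3.67, all close to the median of the list.

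Several *Drosophila* LTR retrotransposons are named by a number alone and are given here by their Swiss-Prot entry. The element of entry P10394 was matched by 5 genes with 1 peak each, with a median fold of 6.45 and a range of 2.84 to 8.47. The highest was at chr2_0938, 18478 bp upstream of the TSS, with 20 fragments over 2.48. KEGG named this gene the catalytic subunit of the DNA-dependent protein kinase, which acts in the repair of DNA breaks. It was followed by chr8_2413, with a fold of 6.81 in an intron, chr13_1585, with a fold of 6.45 at 29064 bp upstream, and chr11_1398, with a fold of 3.54. The lowest was at chr11_1187, where 98 fragments stood over a background of 34.8, the highest background of any member. In this set the peak with the most fragments thus had the lowest fold.

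The element of entry P20825 was matched by 4 genes with 8 peaks, of which 5 lay in introns of chr2_2668. These 5 peaks ran from chr2:117924210 to 117929602, between 23149 and 18172 bp from the TSS. From the far end to the near end their folds were 4.36, 3.49, 2.75, 4.09 and 2.63, and their pileups 15, 18, 14, 14 and 18 fragments. All 5 folds were below the median of all peaks. The backgrounds ran from 3.67 to 7.23 and were highest under the peak with the lowest fold. KEGG named chr2_2668 golgin subfamily A member 4, a tether of Golgi vesicles, while InterPro found a reverse transcriptase and an integrase domain. A peak assigned to the neighbouring gene chr2_2669, in its promoter, lay 224 bp beyond the last of them with a fold of 3.73. The other genes of entry P20825 had 1 peak each. The folds were 6.85 at chr6_2345, 113040 bp from its TSS, 5.18 at chr2_0023, 5482 bp upstream, and 3.71 at chr8_0021, in an intron over a background of 10.8.

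The element of entry P04323 was matched by 4 genes with 1 peak each and a median fold of 3.93. The peak of chr2_2937 in an intron 8666 bp from the TSS reached 6.27 with 22 fragments, and KEGG named that gene ryanodine receptor 1, a calcium channel. The others were chr10_1735 at 4.32, chr8_2737 at 3.54 and chr4_1689 at 3.51. The last of these peaks, at chr4:68742122-68742348, was in an exon 1008 bp from the TSS. Of the 34 genes, only chr4_1689 carried a gag domain, next to reverse transcriptase, integrase and a TatD DNase domain. Opus was matched by chr7_0057, with an intron peak at a fold of 5.64. Ty3-I, an LTR element of yeast, was matched by chr7_1107, with a peak at chr7:46912964-46913255 in the promoter, 1435 bp upstream, which had 9 fragments and a fold of 3.70.

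The LTR gene chr5_0348 was matched by TrEMBL only, as a fragment of the same element as entry P10394, at 7e-76. Swiss-Prot named it TMX3, a disulfide isomerase of the endoplasmic reticulum, at 1e-42, and KEGG gave it a thioredoxin domain protein at 2e-96. InterPro listed both a thioredoxin-like and a reverse transcriptase domain. It had 4 intron peaks spread over 73981 bp, at 216076, 206474, 196077 and 142356 bp from the TSS. In that order the folds were 4.03, 7.92, 3.15 and 4.68, with 9, 21, 33 and 12 fragments. The peak with most fragments had the lowest fold, over a background of 10.8, and the peak at 7.92 stood over 2.78.

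Of the 6 DNA transposon genes, 5 matched piggyBac transposable element-derived protein 4 (PGBD4), which in humans is a gene taken over from a piggyBac transposon. All 5 carried a transposase domain and had 1 peak. The highest fold was 6.37 at chr6_1896, in an intron 16218 bp from the TSS with 16 fragments. The others were chr6_1286 at 4.43, chr14_0818 at 3.62, chr11_0729 at 3.16 and chr2_1370 at 3.10, the last with 49 fragments over a background of 16.1. Below the median of all peaks were thus 4 of these 5. The remaining gene, chr12_2001, was named a Tcb2 transposase by TrEMBL and had no Swiss-Prot or KEGG entry. Its intergenic peak had 10 fragments and a fold of 4.43. None of the 6 genes had a promoter peak, with 4 peaks intergenic and 2 in introns.

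The gene chr11_2152 was a retrotransposon nucleocapsid protein by TrEMBL (3e-33), zonadhesin by Swiss-Prot (3e-06) and MAP7 domain-containing protein 1 by KEGG (8e-20). It had 3 intron peaks, at 6486, 5537 and 1981 bp from the TSS, with folds of 5.91, 2.66 and 5.64. The outer peaks were alike in fold, and the middle peak had the highest background of the 3, at 9.01. The telomerase gene chr8_2245, which encodes the reverse transcriptase that extends chromosome ends, was named as such by Swiss-Prot, KEGG and TrEMBL, and its model also held a C1q domain. It had 4 intron peaks over 101184 bp, at 21879, 104157, 112850 and 122529 bp from the TSS, with folds of 4.61, 4.68, 4.09 and 3.82. These folds were the most even of the genes with several peaks and lay within the interquartile range of all peaks.

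**Figure D3:**
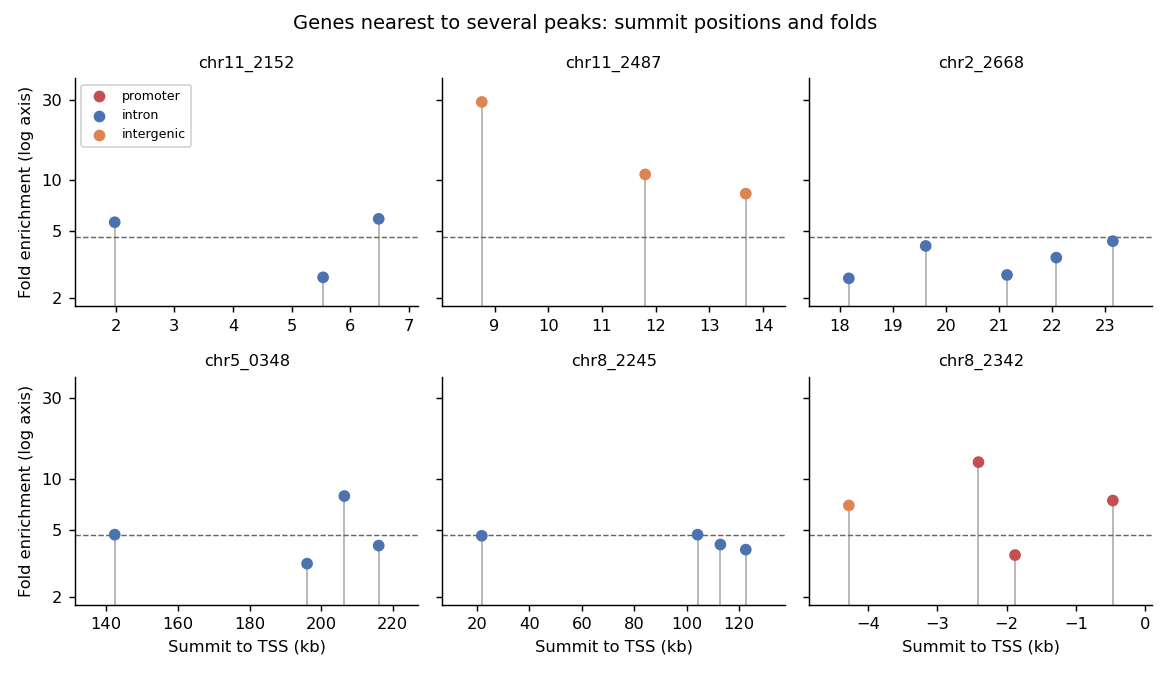
Fold enrichment (log axis) against the distance from summit to TSS in kb, negative upstream, for the 6 genes with several peaks, with 1 point per peak coloured by region and the dashed line at the median of all peaks, 4.63. The 3 peaks of chr11_2487 fall from 29.0 to 8.33 with distance, and the 5 peaks of chr2_2668 all lie under the line.

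Several peaks at 1 gene were about as common as in the whole list. Of the 34 genes, 6 had 2 or more peaks (17.65%, 8.35 to 33.5%), against 556 of 2548 genes (21.8%, 20.3 to 23.5%). They held 23 of the 51 peaks. The other 28 genes had 1 peak each, with a median fold of 4.43 and a range of 2.84 to 8.47. The median gap from a member peak to the next peak of another gene was 129116 bp. Another gene's peak lay within 10 kb of 6 members only, the 5 peaks of chr2_2668 and that of chr11_0729, whose neighbour 5682 bp away had a fold of 7.66 in an intron of a perlucin-like gene.

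Member peaks lay mostly in introns and between genes. Introns held 26 of 51 (50.98%, 37.7 to 64.1%), against 44.9% of all peaks, and intergenic regions 18 (35.3%, 23.6 to 49.0%), against 40.5%. Promoters, up to 3 kb from the TSS, held 5 (9.80%, 4.26 to 21.0%), against 7.24%, and exons 2 (3.92%, 1.08 to 13.2%), against 5.25%. The downstream class held 0 of 51, which allows a share of up to 5.88%, against 2.14% of all peaks. Each share of all peaks was within the interval of the members. Of the 5 promoter peaks, 3 belonged to chr8_2342, and without that gene the share was 4.26%. By type, promoters held 4 of 27 LTR peaks and 1 of 11 LINE peaks.

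**Figure D4:**
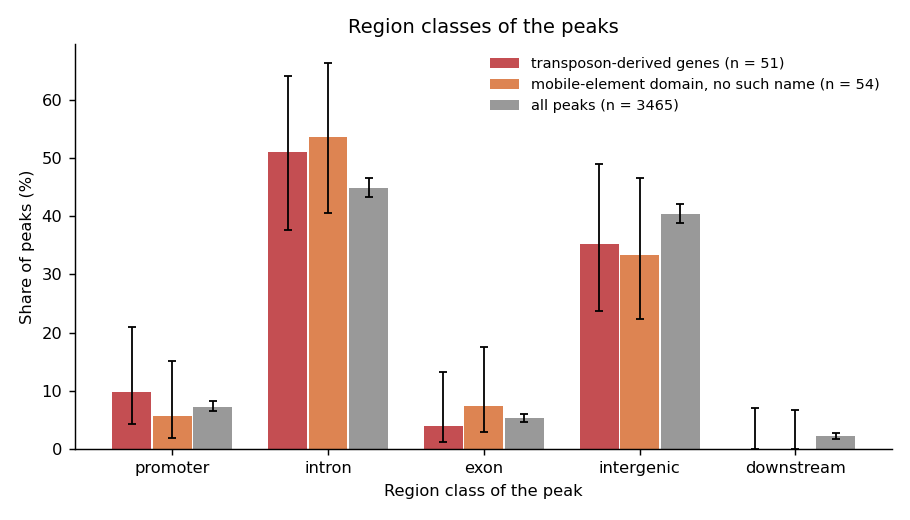
Share of peaks in each region class (percent) for the 51 members, for the 54 peaks whose nearest gene has a mobile-element domain but no such name, and for all 3465 peaks. Bars start at 0, and lines are 95% Wilson intervals; introns are the largest class in each set, with 50.98%, 53.7% and 44.9%.

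Of the 18 intergenic members, 7 lay upstream of their gene (38.9%, 20.3 to 61.4%) and 11 beyond it, and the interval included the 59.0% of the 1402 intergenic peaks in the list that lay upstream. Without chr11_2487, which held 3 of the 11, it was 7 of 15 (46.7%). The intergenic members were a median of 10588 bp from the TSS, within a range of 4273 to 113040 bp, against 16850 bp for all intergenic peaks. Intron members were a median of 21981 bp from the TSS, against 18842 bp, and 16 of these 26 belonged to the 4 genes with several intron peaks. The median fold was 4.34 in intron members, against 4.84 in all intron peaks, and 5.21 in intergenic members, against 4.48 in all intergenic peaks. By peak, intron members were thus lower and intergenic members higher than their class. The intergenic difference depended on chr11_2487, whose 3 peaks had folds of 29.0, 10.8 and 8.33. The intron members included the 5 peaks of chr2_2668, with folds of 2.63 to 4.36, and the intron median without that gene was not computed. Neither difference was tested.

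The members were spread over 11 chromosomes with uneven counts. Chromosome 8 held 13 (3.79% of its 343 peaks), chromosome 2 held 11 (3.30% of 333) and chromosome 11 held 10 (4.69% of 213). These chromosomes, picked because they held the most members, together held 34 of the 51 member peaks (66.7%), against 889 of all 3465 peaks. With each gene counted once, they held 20 of the 34 genes (58.8%), with 7, 7 and 6 genes on chromosomes 8, 2 and 11. The choice itself raises these pooled shares, and the share of all 2548 genes that lay on these chromosomes was not computed. The 54 peaks whose nearest gene has a mobile-element domain but no such name were not concentrated there. Chromosomes 8, 2 and 11 held 0, 3 and 4 of them. Genes with several peaks held 8 peaks of chr8_2342 and chr8_2245 on chromosome 8, 5 of chr2_2668 on chromosome 2 and 6 of chr11_2487 and chr11_2152 on chromosome 11. Chromosomes 1, 3 and 9 held 0 members among their 910 peaks. They were picked because they held 0 members, so an upper limit on their pooled share would not be valid and none is given. The number of transposon-derived genes on each chromosome of the genome was not analysed here, so these counts cannot be set against it.

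**Figure D5:**
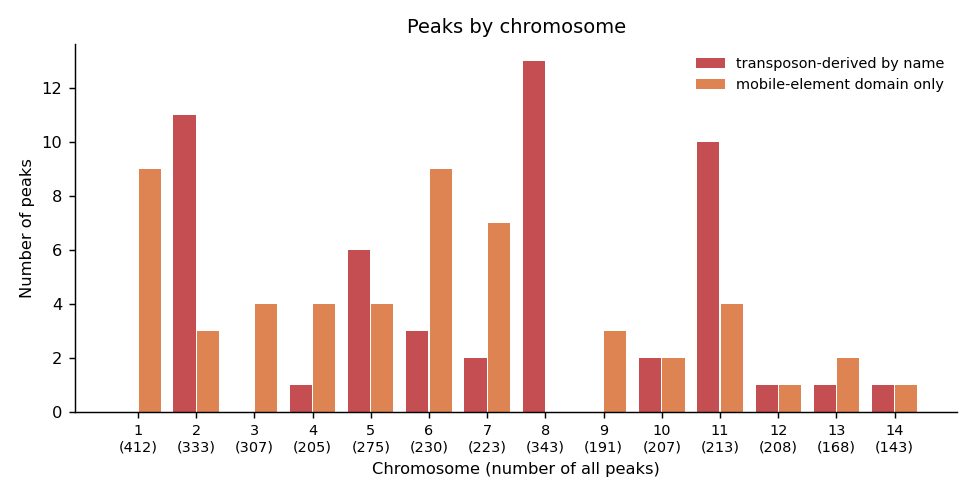
Number of peaks on each of the 14 chromosomes whose nearest gene is transposon-derived by name (red) or has a mobile-element domain only (orange), with the number of all peaks in brackets. Chromosomes 8, 2 and 11 lead by name with 13, 11 and 10 peaks, and chromosome 1 has 9 by domain and 0 by name.

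Protein domains, which the rule did not use, followed the names. Both describe the same protein, so the domains are not independent of the names. InterPro listed a reverse transcriptase domain in 19 of 34 genes, of which 10 were LTR, 8 LINE and 1 telomerase. An integrase domain was listed in 9 genes, all LTR, and 5 of these had both domains. A transposase domain was listed in 5 genes, those of PGBD4. The aspartyl protease signature was found in 1 LTR gene, chr8_0021, and a ribonuclease H or endonuclease domain in 0. No gene had gag, protease, reverse transcriptase and integrase together, and 6 had no mobile-element domain at all. Of the 13 genes in the list that PANTHER put in family PTHR24559, 11 were members and all of them LTR. Of the 10 in PTHR19446, 5 were members and all of them LINE.

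Most members also matched a KEGG entry filed under the orthology term of a host gene. The KEGG names given above for members are these terms, and some of the matched entries are themselves uncharacterized. Apart from telomerase, 31 genes carried a KEGG orthology term, from 20 different terms, and no KEGG name among these held one of the words of the rule. Of the 29 genes with a transposon name in Swiss-Prot and a KEGG match, 20 had the lower E-value in KEGG. The databases differ in content and size, so these E-values do not rank a host name above a transposon name. One KEGG entry, an uncharacterized fish protein filed under nuclear receptor co-repressor 2, was the match of 7 LTR genes and of no other gene in the list. Their folds ran from 2.84 to 6.85. A fish ephrin receptor entry was shared by chr8_2342 and chr8_2413, a DnaJ entry by chr5_2362 and chr8_0109, a nuclear pore entry by chr6_1286 and chr6_1896, and a PRDM9 entry by chr11_0729 and chr2_1370. In each of these pairs the genes matched the same type of element.

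Genes with a mobile-element domain in InterPro but none of the words in their names gave a further 54 peaks at 42 genes. Their median fold was 4.84 (4.39 to 5.24), the range was 2.32 to 11.3, and 22 of 54 reached a fold of 5 (40.7%, against 39.8% of all peaks). Of the 42 genes, 28 had no Swiss-Prot entry. The highest fold, 11.3, was in an intron of chr6_0576, which KEGG named like host cell factor 1 and which had a transposase domain. A promoter peak of chr5_2834, named by KEGG as the transporter SLC15A5 and with an integrase domain, had a fold of 9.81. The most peaks, 6, lay at chr1_0109, with folds of 3.84 to 7.56. On chromosomes 1, 3 and 9, which held no member, there were 16 such peaks, and on chromosome 8, which held the most members, there were 0. Counted by name or domain, 105 peaks at 76 genes made up 3.03% of the list.

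Names were searched for words of host genes that restrain transposons, such as small RNA carriers, RNA editing enzymes and chromatin readers. This gave 11 peaks at 8 genes with a median fold of 4.28 (3.12 to 7.36). The word chromobox took in chr10_2453 and chr10_2491, and whether any of the 8 genes restrains transposons was not tested. Of the 11 peaks, 7 were in introns, 3 intergenic, 1 downstream and 0 in promoters, which held 7.24% of all peaks. A fold of 5 was reached by 4 of 11 (36.4%, against 39.8% of all peaks). The highest was 11.3 at chr10_2491, like the chromodomain protein CDYL2, which binds methylated histones, and the lowest 3.04 at chr2_0297, like ribonuclease III, an enzyme that cuts double-stranded RNA. Argonaute 1 (chr12_0193), which carries small RNAs, had a peak in the downstream class with 37 fragments and a fold of 5.26. The gene like the RNA editing enzyme ADAR (chr7_0870) had intron peaks at 4.00 and 7.36. The tudor domain genes TDRD1 (chr8_2308) and RNF17 (chr9_0262), which act in the piRNA pathway, had folds of 3.12 and 3.84, and of 4.32 and 3.54, all below the median of the list.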

How the data were processed

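Peaks of 1 Nrf2 ChIP library against 1 input library were read from the deposited table. The submitters' processing notes name Trimmomatic 0.36, FastQC, Bowtie2 2.5.1 and MACS3 3.0.0a7. The authors kept uniquely mapped reads on an unpublished genome, so reads from near-identical copies were not kept, and the effect on multi-copy elements was not tested. The q threshold and the handling of duplicates were not given in the sources used here. In the deposited table, pileup is the ChIP signal in fragments at a summit, fold enrichment the authors' ratio over the input background, and q the authors' −log10 value. Total read depth was not used, and pileups give the depth behind each peak. Positions are 1-based on the authors' genome. A gene table of a different assembly, with identifiers of its own, was left out, and no sequence was read.

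Background was (pileup + 1) / fold enrichment. Regions, nearest genes, distances and names (best matches in other species) are the authors' annotation, and for genes with several peaks the TSS implied by summit and distance was the same for each peak. Element types came from words in the Swiss-Prot, then KEGG, then TrEMBL match; the name of chr11_2152 held no type word. The members, lists and element types were chosen with earlier results of these data known. Genes taken as restraining transposons were those whose names held piwi, argonaute, dicer, Drosha, tudor, maelstrom, HEN1, DNA (cytosine-5)-methyltransferase, SETDB1, chromobox, heterochromatin protein, MORC, SAMHD1, TREX1, ADAR, MOV10, vasa or DDX4. The naming rule took the 10 highest folds, genes with 2 or more peaks or with a promoter or exon peak, the 3 lowest folds, the 3 highest pileups, 2 leading genes of each element type and up to 8 genes whose databases disagree; further genes were named once their values were known. Intervals on shares are 95% Wilson intervals, a count of 0 is limited by 3 counts, and no significance test was run. The interval of the median was tested on draws from the folds of the list, that of shares on simulated counts, and the type function on example names. Alternatives were −log10 q of at least 3, fold of at least 4, no peaks above the 90th percentile of background, 1 peak per gene, Swiss-Prot only, E-value of at most 1e-20 and no host enzymes. Computation used Python 3.11.15 with SciPy 1.17.1, NumPy 2.4.6, pandas 2.3.3 and, for plots, Matplotlib 3.10.9.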

Additional observations from a re-analysis of the deposited data

How the results depend on the processing

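Of 134 recomputed values, 114 stayed within 1.5 times the value reported, for counts, or within its 95% interval, for shares and the median fold, which still allowed losses such as from 51 to 34 peaks with 1 peak per gene. With −log10 q of at least 3, 32 peaks at 21 genes remained in the set, with a median fold of 5.78, 7 LINE and 2 DNA transposon peaks. With a fold of at least 4 there were 33 peaks with a median fold of 5.64, 16 LTR and 3 DNA transposon peaks. The fold filter removes low folds by construction. The q filter removed 19 members with folds of 2.63 to 4.43, none of them above the median of the 51. Why these folds were low was not tested. With 1 peak per gene there were 17 LTR peaks, 1 telomerase peak and 1 with another transposon name, and from Swiss-Prot alone 0 of the last kind. An E-value of at most 1e-20 gave 7 LINE peaks. Other alternatives were chosen after seeing the data. Counting genes by name or domain gave 105 peaks at 76 genes, 3.03% of the list, with 42 at a fold of 5 or more. Without chr8_2342 the promoter share was 4.26%, and without chr11_2487 there was 1 peak at a fold of 10 or more. Leaving out host enzymes gives no value for telomerase. No paired analysis was possible because each group has 1 library, and no replicate could be left out. Most peaks rest on fewer than 40 fragments, and without a second ChIP library their folds have no error.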
